A study of Homo sapiens with 4 samples.

Results

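The genes described here are 49 genes of oxidative phosphorylation, chosen by name from the 63241 genes of the deposited count table. They comprise the 13 mRNAs and 2 rRNAs encoded by mitochondrial DNA and 34 nuclear genes for subunits of the respiratory chain complexes and ATP synthase. The RNA came from LX-2, an immortalised human line of hepatic stellate cells, the liver cells that deposit scar matrix. Before treatment the cells were starved for 24 h in medium with 0.5% serum, and treatments then lasted 24 h. The 4 groups were TGF-β (20 ng/mL) with BDS4 (5 µM), TGF-β (20 ng/mL) with RVX-208 (5 µM), TGF-β (20 ng/mL) alone, and a control without TGF-β, with 1 library each. DMSO is named in the label of the sample with TGF-β alone, while no source used here says whether control cells got vehicle. RVX-208, also called apabetalone, inhibits the BET proteins, chromatin readers that promote transcription, and prefers their second bromodomain. For BDS4 the labels give a code name only, and the study's title speaks of covalent inhibitors of the first bromodomain (BD1). Its column in the table has a code without the compound's name, which the sample description ties to it. All groups come from the same cell line, and no replicate cultures could be compared.

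Oxidative phosphorylation makes ATP from the electrons of nutrients. Complex I and complex II pass electrons to ubiquinone, complex III and cytochrome c carry them on, complex IV hands them to oxygen, and ATP synthase (complex V) uses the proton gradient built on the way. Its subunits come from 2 genomes: mitochondrial DNA encodes a few membrane core subunits and the rRNAs of the mitochondrial ribosome, and the nucleus encodes the rest, complex II included. Mitochondrial DNA is transcribed as long precursors from which tRNAs are cut out, which frees the rRNAs and mRNAs between them. In fibrotic liver, activated stellate cells are known for a high demand for energy to make and secrete matrix.

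Values are CPM, counts relative to the TMM-scaled library total, and ratios between libraries are given as log2 ratios with 95% counting intervals in brackets. Library totals were 21618509 counts with BDS4, 17022369 with RVX-208, 21860122 with TGF-β alone and 22503094 in the control. With 1 library per group no test across cultures was possible, and the intervals cover counting error only. A gene was said to rise or fall where its ratio was at least 2-fold and the interval excluded 1, and a count at 1.5-fold is given as well. Of the 49 genes, 46 reached 1 CPM in at least 1 library, among them all 15 mitochondrially encoded genes and 31 of 34 nuclear genes. The other 3 were listed at very few counts in the BDS4, RVX-208, TGF-β and control libraries. NDUFB10 had 11, 8, 13 and 19 counts, NDUFS3 had 3, 4, 10 and 14, and COX5B had 7, 0, 3 and 0. These are subunits that respiring cells are known to need, and genes such as RPS25, a ribosomal protein gene, were also listed low (72, 43, 68 and 52 counts), so no fold is given for the 3 genes and absence is not read from them. The labelled cell type was checked against 10 stellate and mesenchymal markers, whose summed level was 5106 CPM with BDS4, 8243 with RVX-208, 9844 with TGF-β and 6295 in the control. Within this list VIM had 4080, 4052, 3551 and 3290 CPM, COL1A1 had 103, 2935, 4705 and 2075, PDGFRB had 5.98, 63.3, 136 and 35.0, and SPARC had 166, 594, 974 and 640. The BDS4 library thus stood apart from the other 3 in COL1A1 and PDGFRB mRNA. Not all markers of the list were lower with BDS4: TIMP1 had 701, 529, 347 and 167 CPM in the same order. ACTA2 had 19.2, 24.6, 27.0 and 21.5 CPM, and LOX had 30.5, 43.5, 95.7 and 62.9. COL1A2 was low in every library (0.196, 1.60, 8.20 and 2.97 CPM), and DES had 11, 0, 0 and 0 counts. LRAT, the retinoid enzyme of stellate cells, was at 0 in every library. Of the 5 hepatocyte markers 4, ALB among them, were under 10 counts in every library, and SERPINA1 had 30, 35, 79 and 56 counts. The 4 cholangiocyte markers summed to 24.3, 51.6, 105 and 57.5 CPM, most of it SOX9 (22.9, 48.5, 91.1 and 50.1 CPM). The 4 endothelial markers summed to 11.8, 6.59, 6.16 and 7.24 CPM, and the 5 macrophage and leukocyte markers to 4.07, 3.03, 8.60 and 7.83 CPM, with PTPRC at 4 counts or fewer. The part of these marker differences in the results below was not tested.

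With BDS4 the mitochondrial rRNAs had the largest ratios among the 46 genes, so the DNA at their borders is shown first, from the GRCh38 mitochondrial sequence at chrM:577-696 and chrM:1577-1695, both on the plus strand. Capitals are rRNA and lower case is the tRNA gene whose excision frees the rRNA end. Each tRNA abuts its rRNA without a spacer base.
MT-TF and start of MT-RNR1: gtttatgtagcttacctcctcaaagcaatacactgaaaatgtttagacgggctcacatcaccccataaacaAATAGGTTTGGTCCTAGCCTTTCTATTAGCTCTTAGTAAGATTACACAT
End of MT-RNR1, MT-TV and start of MT-RNR2: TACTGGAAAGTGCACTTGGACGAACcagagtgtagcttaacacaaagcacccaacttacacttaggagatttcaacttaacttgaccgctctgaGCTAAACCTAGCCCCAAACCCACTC

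The BDS4 library stood apart in the balance of mitochondrial rRNA and mRNA. The 13 mitochondrial mRNAs held 0.891% of all counts with BDS4 (95% exact binomial interval 0.887 to 0.895), 1.48% with RVX-208, 1.49% with TGF-β and 1.47% in the control. The 2 rRNAs held 0.903% with BDS4 (0.899 to 0.907), 0.230% with RVX-208, 0.248% with TGF-β and 0.212% in the control. The 34 nuclear genes together held 0.342%, 0.383%, 0.364% and 0.433% in the same libraries. Per mRNA count there were 1.01 rRNA counts with BDS4, against 0.155 with RVX-208, 0.166 with TGF-β and 0.144 in the control, a ratio that needs no scaling between libraries. In bulk RNA of this kind, fewer cells of a type and less RNA per cell cannot be told apart.

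**Figure D1:**
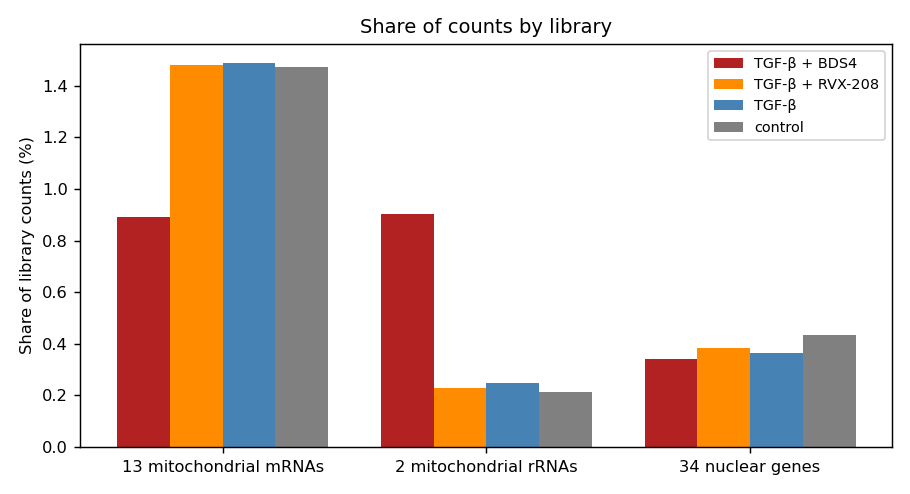
Share of library counts (%, vertical axis) held by the 13 mitochondrial mRNAs, the 2 mitochondrial rRNAs and the 34 nuclear genes, with 1 bar per library (no replicates, so no error bars). With BDS4 the mRNAs stood at 0.891% and the rRNAs at 0.903%, while the other 3 libraries held 1.47% to 1.49% and 0.212% to 0.248%.

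MT-RNR1 (chrM:648-1601, plus strand), the rRNA of the small mitochondrial ribosomal subunit, had 3595 CPM with BDS4, 711 with RVX-208, 621 with TGF-β and 527 in the control. It rose 5.79-fold with BDS4 relative to TGF-β alone (log2 ratio 2.53 [2.51 to 2.56]) and 5.06-fold relative to RVX-208 (2.34 [2.31 to 2.37]). MT-RNR2 (chrM:1671-3229, plus strand), the rRNA of the large subunit, had 5979 CPM with BDS4, 1613 with RVX-208, 1829 with TGF-β and 1475 in the control. It rose 3.27-fold with BDS4 relative to TGF-β (1.71 [1.69 to 1.73]) and 3.71-fold relative to RVX-208 (1.89 [1.87 to 1.91]). Both rRNAs were thus highest with BDS4, and the other 3 libraries lay close together. Across all 16099 genes past 1 CPM, 14.5% were higher by the 2-fold rule with BDS4 than with TGF-β. The 2 rRNAs did not keep a fixed ratio to each other: the counts of MT-RNR2 per count of MT-RNR1 were 1.66 with BDS4, 2.27 with RVX-208, 2.94 with TGF-β and 2.80 in the control.

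The libraries were made with a kit for mRNA, so the rRNA values are those of the rRNA that passed through this kit. A difference in how much untailed RNA passed the kit in the BDS4 library and an effect of BDS4 cannot be told apart with 1 library per group. Other RNAs known to lack poly(A) tails were looked at after the rRNA values had been seen. RN7SK, a nuclear RNA that holds the elongation factor P-TEFb inactive, had 118 counts with BDS4, 23 with RVX-208, 16 with TGF-β and 21 in the control (log2 ratio of BDS4 to TGF-β 3.00 [2.24 to 3.85]). RNA5-8SN3, a cytosolic rRNA, had 48, 25, 18 and 23 counts in these libraries. RN7SL1, the RNA of the signal recognition particle, had 49.1 CPM with BDS4, 29.2 with RVX-208, 83.3 with TGF-β and 15.7 in the control. RN7SL2 had 62.3, 38.4, 98.7 and 26.6 CPM. With BDS4 both thus lay below TGF-β alone and above RVX-208 and the control. Of 69 replication-dependent histone genes in the table, whose mRNAs mostly end without such a tail, 47 were past 1 CPM. Relative to TGF-β, 43 of these 47 were higher by the 2-fold rule with BDS4 and 18 with RVX-208, beside 14.5% and 2.94% of all genes, with summed levels of 2358 CPM with BDS4, 1093 with RVX-208, 539 with TGF-β and 468 in the control. A further 7 long non-coding RNAs were MALAT1, NEAT1, KCNQ1OT1, MEG3, NORAD, GAS5 and SNHG1. They were not chosen for having or lacking a tail, so they are not read as a set of tailed RNAs. All 7 were higher by the 2-fold rule with BDS4 (median log2 ratio 1.39) and 2 with RVX-208 (0.42), beside 14.5% and 2.94% of all genes. In the BDS4, RVX-208, TGF-β and control libraries NEAT1 had 968, 127, 60.6 and 66.8 CPM. MALAT1 had 69.0, 69.1, 24.4 and 40.9 CPM, and MEG3 had 637, 233, 262 and 185. The part of any of these differences in the rRNA result was not tested.

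The 13 mitochondrial mRNAs were lower with BDS4 than with TGF-β in every case, under each of the scalings tried. Their log2 ratios ran from -0.92 to -0.11 with a median of -0.60, beside a median of -0.01 over all genes. None of 13 passed the 2-fold rule, which 32.2% of all genes passed in either direction (17.7% lower), and 7 of 13 were lower past 1.5-fold, beside 26.5% of all genes. Under total-count scaling MT-CO3 passed 2-fold (-1.02), and 11 of 13 were lower past 1.5-fold, with MT-ND1, MT-ND3, MT-ND4 and MT-ND4L added. With RVX-208 relative to TGF-β their median was 0.16 (range -0.20 to 0.35), and none of 13 passed 1.5-fold, beside 6.6% of all genes higher and 10.4% lower. The MT-ND2, MT-ATP6 and MT-CO1 values are uncertain in size because nuclear copies of these genes (MTND2P28, MTATP6P1 and MTCO1P12) also drew counts. Adding the copies' counts turned no sign.

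**Figure D2:**
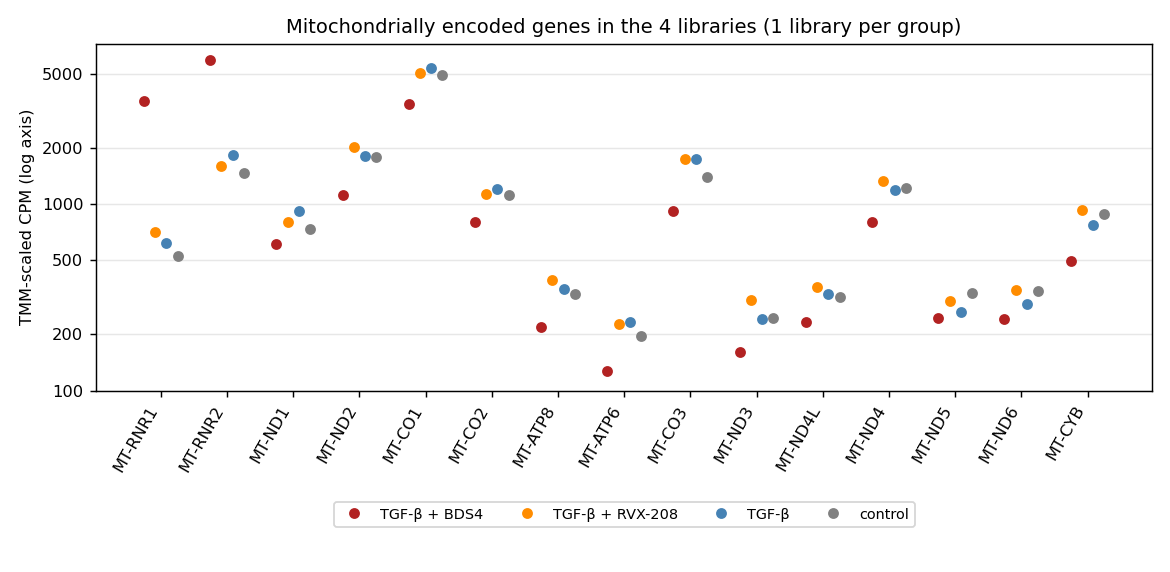
TMM-scaled CPM (log axis) of the 15 mitochondrially encoded genes in gene order, with 1 point per library. The BDS4 points lie above the others for the 2 rRNAs and below them for each of the 13 mRNAs.

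Mitochondrial DNA encodes 7 subunits of the membrane arm of complex I, the enzyme that takes electrons from NADH. MT-ND1 had 615 CPM with BDS4, 799 with RVX-208, 920 with TGF-β and 737 in the control. MT-ND2 had 1127, 2018, 1806 and 1794 CPM in the same order of libraries, and MT-ND3 had 162, 306, 241 and 245. MT-ND4 had 806, 1328, 1192 and 1219 CPM, and MT-ND4L, whose frame overlaps that of MT-ND4 on a shared mRNA, had 233, 361, 331 and 318. For these 5 genes the BDS4 library was the lowest of the 4, with log2 ratios to TGF-β between -0.68 for MT-ND2 and -0.51 for MT-ND4L. The other 2 differed less. MT-ND5 had 244 CPM with BDS4, 303 with RVX-208, 263 with TGF-β and 335 in the control, a log2 ratio of BDS4 to TGF-β of -0.11 [-0.17 to -0.06]. MT-ND6 had 241, 348, 290 and 344 CPM, a log2 ratio of -0.26. MT-ND6 is the only mRNA read from the opposite strand, and no source used here gives the strand setting of the counting, so its reads cannot be told apart from antisense RNA of its neighbours.

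MT-CYB encodes cytochrome b, the mitochondrially encoded subunit of complex III. It had 498 CPM with BDS4, 932 with RVX-208, 772 with TGF-β and 881 in the control, a log2 ratio of BDS4 to TGF-β of -0.63 [-0.67 to -0.60] and of RVX-208 to TGF-β of 0.27. The catalytic core of complex IV comes from MT-CO1, MT-CO2 and MT-CO3. MT-CO1 had 3454, 5087, 5381 and 4955 CPM in the BDS4, RVX-208, TGF-β and control libraries (-0.64 for BDS4 relative to TGF-β), and MT-CO2 had 799, 1135, 1211 and 1125 (-0.60). MT-CO3 had 919, 1739, 1739 and 1397 CPM and the largest difference of the mitochondrial mRNAs, a log2 ratio of BDS4 to TGF-β of -0.92 [-0.95 to -0.90], or 1.89-fold lower, which became -1.02 under total-count scaling. The mitochondrially encoded subunits of ATP synthase share an mRNA with overlapping frames: MT-ATP8 had 219, 392, 351 and 331 CPM (-0.68), and MT-ATP6 had 128, 227, 234 and 197 (-0.87). For all 6 mRNAs of complexes III, IV and V the BDS4 library was the lowest and each was lower past 1.5-fold.

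Per length, as the deposited FPKM values give it, MT-CO1 was the highest of the 15 mitochondrial genes at 3262 FPKM with RVX-208, 3525 with TGF-β and 3410 in the control. With BDS4 it had 2113 FPKM and stood below MT-RNR2 (3618) and MT-RNR1 (3555). MT-ND5 was the lowest per length in all 4 libraries, at 127 FPKM with BDS4, 166 with RVX-208, 147 with TGF-β and 196 in the control. Within the mitochondrial mRNAs MT-CO1 held similar shares of the counts, at 36.6% with BDS4, 34.0% with RVX-208, 36.5% with TGF-β and 35.7% in the control. MT-ATP6 read 177 FPKM with BDS4 while MT-ATP8 read 999, although the genes share a transcript, and their order was the same in the other libraries. No source used here says how the counting divided reads between overlapping genes and nuclear copies.

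Several mitochondrial mRNAs end before a stop codon is complete, and the poly(A) tail that is added to them supplies its missing bases. The last 21 bases of 5 coding sequences are shown with the stop, or the part of it that the DNA encodes, in capitals. With BDS4, MT-CO3 differed most from TGF-β and has an incomplete stop, while MT-ND5 and MT-ND6 differed least and have a complete one. The 5 stretches lie at chrM:9970-9990, chrM:4242-4262, chrM:7425-7445 and chrM:14128-14148 on the plus strand and at chrM:14149-14169 on the minus strand of GRCh38.
MT-CO3: ccatctattgatgagggtctT
MT-ND1: cagcattccccctcaaaccTA
MT-CO1: cccgtatacataaaatctAGA
MT-ND5: accctactcctaatcacaTAA
MT-ND6: gagattgctcgggggaatAGG
Whether a stop was complete was read from the annotated coding sequence of each gene and not from the end of its mRNA. The 6 genes with an incomplete stop had log2 ratios of BDS4 to TGF-β from -0.92 to -0.56 with a median of -0.61. The 7 with a complete stop ran from -0.87 to -0.11 with a median of -0.60. The -0.87 is that of MT-ATP6, whose last annotated base, chrM:9207, is also the first of MT-CO3. Whether its mRNA holds the full stop is therefore not known from the annotation. MT-CO1 (-0.64) and MT-CO2 (-0.60), with a complete stop, also lay within the range of the other kind. The least different genes, MT-ND5, MT-ND6 and MT-ND4L, all had a complete stop by annotation. MT-ND4L, however, shares its mRNA with MT-ND4, whose stop is incomplete.

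Along the genome the rRNAs and the mRNAs after them differed in sign. MT-RNR2 stood at 1.71 with BDS4 relative to TGF-β, and MT-ND1, the next gene after it that encodes a protein, stood at -0.58. MT-TL1, the tRNA gene between them, stood at 0.09. The downstream genes MT-CO3 and MT-ND5, which the same precursor is known to carry, differed from each other: there were 0.265 counts of MT-ND5 per count of MT-CO3 with BDS4, 0.174 with RVX-208, 0.151 with TGF-β and 0.240 in the control. In this ratio the BDS4 library lay closer to the control than to TGF-β.

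**Figure D3:**
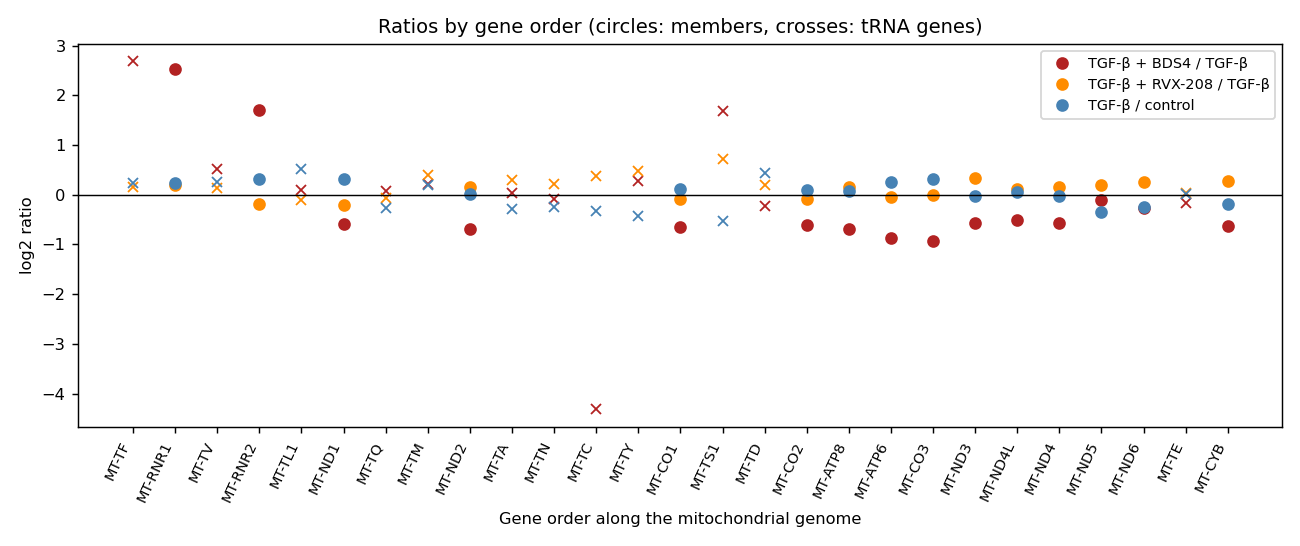
log2 ratio (vertical axis) of each mitochondrially encoded gene in the order of the genes on mitochondrial DNA, for BDS4 with TGF-β over TGF-β, RVX-208 with TGF-β over TGF-β, and TGF-β over control (circles are the 15 genes described, crosses are tRNA genes with enough counts to plot). With BDS4 the 2 rRNAs stand at 2.53 and 1.71 and the mRNAs between -0.92 and -0.11.

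The 31 nuclear genes past 1 CPM differed among themselves with BDS4 more than the mitochondrial mRNAs did. Relative to TGF-β their median log2 ratio was -0.19. By the 2-fold rule 2 fell and none rose, beside 17.7% and 14.5% of all genes. Past 1.5-fold 1 was higher and 5 were lower, beside 24.5% and 26.5% of all genes (50.9% in either direction). Under total-count scaling CYC1 also fell by the 2-fold rule, and past 1.5-fold 8 were lower and none higher. Their range ran from -1.49 for NDUFA9 to 0.62 for NDUFA2. With RVX-208 relative to TGF-β none of the 31 passed 2-fold, beside 8.19% of all genes (2.94% higher and 5.25% lower), and none passed 1.5-fold, beside 17.1%. Levels of nuclear genes are compared between libraries and not between genes, since the lengths behind the deposited FPKM exceeded the annotated gene span for 7 of the 34.

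**Figure D4:**
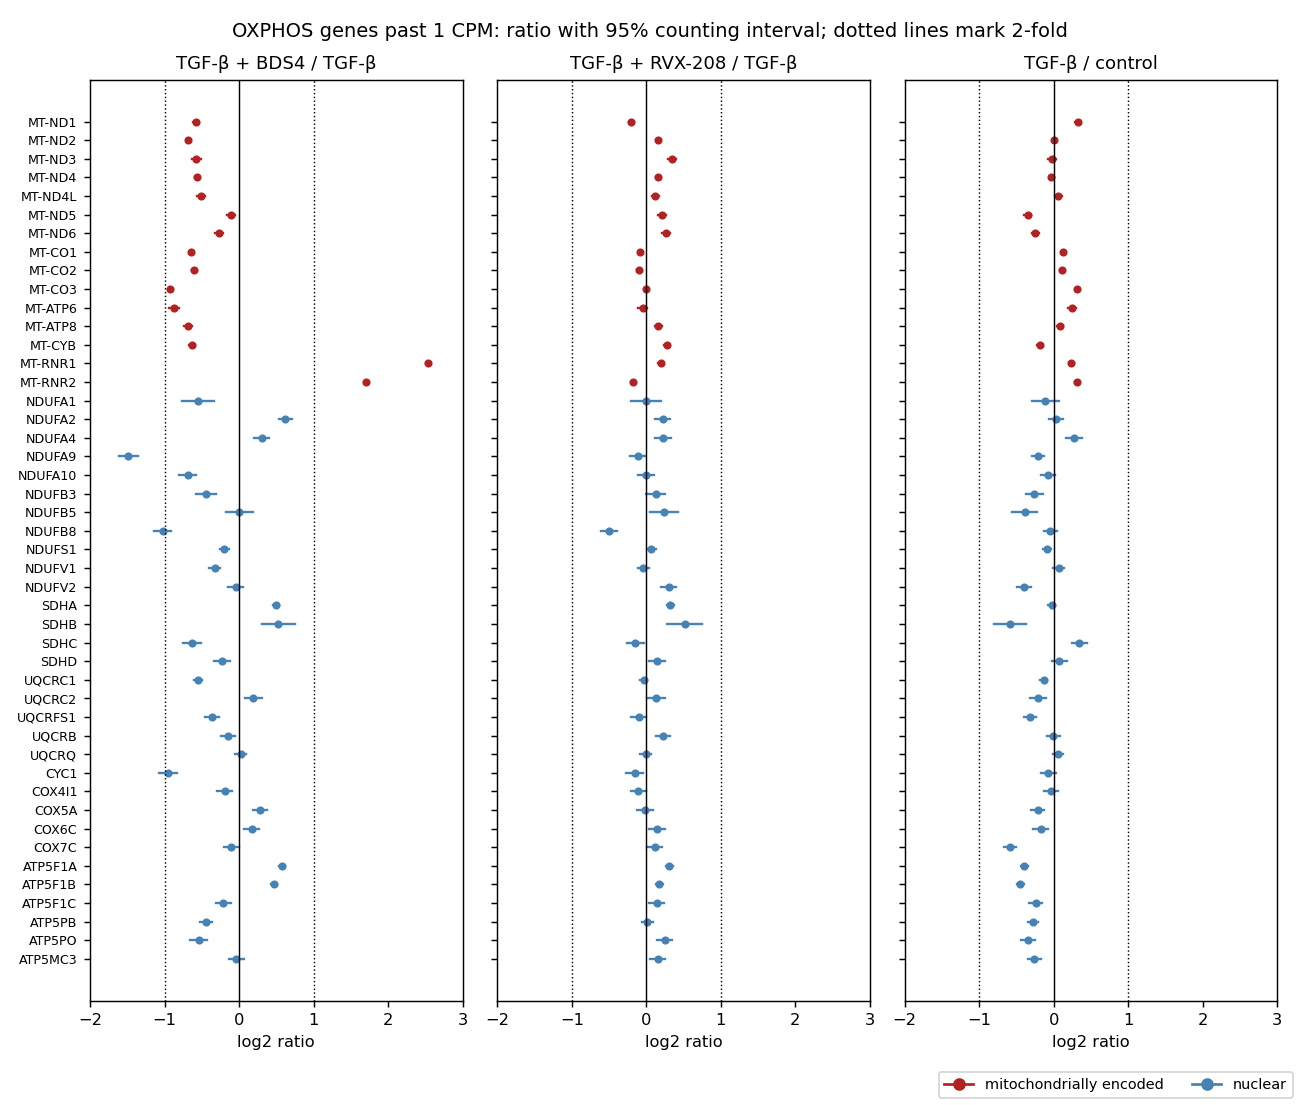
log2 ratio (horizontal axis) with its 95% counting interval for the 46 genes past 1 CPM, in 3 comparisons, with mitochondrially encoded genes in red and nuclear genes in blue and dotted lines at 2-fold. With BDS4 the 2 rRNAs pass the right line and NDUFA9 and NDUFB8 the left line, and in the other 2 panels no gene passes either line.

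Complex I had 11 nuclear genes past 1 CPM, with a median log2 ratio of BDS4 to TGF-β of -0.32. NDUFA9 (chr12:4649095-4694317, plus strand), an accessory subunit near the quinone site, had 33.2 CPM with BDS4, 85.8 with RVX-208, 93.1 with TGF-β and 108 in the control. It fell 2.80-fold with BDS4 relative to TGF-β (-1.49 [-1.61 to -1.36]) and 2.59-fold relative to RVX-208 (-1.37). NDUFB8 (chr10:100523740-100530000, minus strand), an accessory subunit of the membrane arm, had 42.2 CPM with BDS4, 60.7 with RVX-208, 85.7 with TGF-β and 88.5 in the control. It fell 2.03-fold with BDS4 (-1.02 [-1.14 to -0.91]) and was at -0.50 with RVX-208. Its exons overlap an unnamed gene (274, 598, 536 and 1105 counts in these libraries), and with both summed it no longer passed 2-fold. NDUFA10, another membrane-arm subunit, had 49.7 CPM with BDS4, 80.1 with RVX-208, 80.2 with TGF-β and 84.8 in the control (-0.69). Thus NDUFA9, NDUFB8 and NDUFA10 were each lowest with BDS4.

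Other complex I genes showed small or opposite differences. NDUFA2, an accessory subunit of the peripheral arm, was the nuclear gene with the highest ratio, with 123 CPM with BDS4, 92.8 with RVX-208, 79.7 with TGF-β and 78.2 in the control (0.62 [0.53 to 0.71]). Of the core subunits of the NADH-oxidising module, NDUFS1 had 196, 235, 225 and 238 CPM in the BDS4, RVX-208, TGF-β and control libraries (-0.20 for BDS4 relative to TGF-β), NDUFV1 had 121, 148, 152 and 145 (-0.32), and NDUFV2 had 73.0, 92.8, 75.2 and 99.3 (-0.04). NDUFA4, first assigned to complex I, where it is counted here, and later found in complex IV, had 86.1, 81.6, 69.7 and 57.7 CPM (0.30). The membrane-arm subunits NDUFA1, NDUFB3 and NDUFB5 stood at -0.55, -0.44 and 0.00.

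Complex II is encoded wholly by nuclear genes and also belongs to the citric acid cycle. Its flavoprotein SDHA had 514 CPM with BDS4, 456 with RVX-208, 365 with TGF-β and 372 in the control (0.49 for BDS4 and 0.32 for RVX-208 relative to TGF-β). SDHB, the iron-sulphur subunit, had 19.0, 18.8, 13.2 and 19.8 CPM (0.53 and 0.51), with the TGF-β library lowest. The membrane anchors went the other way with BDS4: SDHC had 45.3, 63.3, 70.2 and 55.3 CPM (-0.63), and SDHD had 58.0, 74.9, 67.8 and 64.4 (-0.23). The catalytic subunits were therefore above TGF-β and the anchors below it in the BDS4 library.

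Complex III had 6 genes with a median of -0.25 with BDS4. CYC1, which encodes cytochrome c1, had 40.0 CPM with BDS4, 69.1 with RVX-208, 77.2 with TGF-β and 81.0 in the control, 1.93-fold lower with BDS4 than with TGF-β (-0.95 [-1.07 to -0.83]). The core protein gene UQCRC1 had 214, 306, 314 and 345 CPM (-0.55), and its partner UQCRC2 had 66.3, 63.3, 58.1 and 67.2 (0.19). UQCRFS1, the Rieske iron-sulphur protein, stood at -0.36, UQCRB at -0.15, and UQCRQ at 0.02 with 165, 162, 162 and 156 CPM. CYC1 did not pass 2-fold here but did under total-count scaling (-1.05), and UQCRQ was level across the 4 libraries.

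Complex IV had 4 nuclear genes past 1 CPM, with log2 ratios of BDS4 to TGF-β of -0.19 for COX4I1, 0.29 for COX5A, 0.17 for COX6C and -0.10 for COX7C. COX7C, a small subunit, had 80.2 CPM with BDS4, 92.8 with RVX-208, 86.0 with TGF-β and 129 in the control, so that the control stood above the 3 libraries with TGF-β. These 4 nuclear genes had a median of 0.03 with BDS4 (-0.06 under total-count scaling), against -0.64 for the 3 mitochondrially encoded subunits of the same complex.

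The 6 ATP synthase genes ran from -0.54 to 0.58 with BDS4 relative to TGF-β. ATP5F1A (alpha subunit of the catalytic head) had 433 CPM with BDS4, 359 with RVX-208, 290 with TGF-β and 381 in the control (0.58 [0.53 to 0.62]), and ATP5F1B (beta subunit) had 485, 396, 351 and 478 (0.47). ATP5F1C (gamma subunit of the rotor) stood at -0.21. Of the stalk genes, ATP5PB had 103, 143, 141 and 172 CPM (-0.45), and ATP5PO had 52.1, 89.9, 75.9 and 96.1 (-0.54). ATP5MC3, a gene for the membrane ring, stood at -0.03. None of the 6 passed 1.5-fold in this comparison, beside 50.9% of all genes, and ATP5PO did under total-count scaling (-0.64).

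The mitochondrial mRNAs and the 31 nuclear genes were then set side by side. The difference of their medians (mitochondrial mRNAs minus nuclear genes, log2), which does not depend on library scaling, was -0.41 for BDS4 relative to TGF-β, 0.03 for RVX-208 relative to TGF-β, -0.45 for BDS4 relative to RVX-208 and 0.23 for TGF-β relative to control. The gap with BDS4 depends on which nuclear genes are taken: beside -0.60 for the mitochondrial mRNAs, the median was -0.19 for these 31 nuclear genes, -0.36 for the other 44 nuclear subunits past 1 CPM and -0.47 for all nuclear complex I genes. In counts, there were 2.61 mitochondrial mRNA counts per count of the nuclear genes with BDS4, 3.86 with RVX-208, 4.09 with TGF-β and 3.40 in the control.

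BDS4 and RVX-208 were given at the same dose (5 µM) and for the same time (24 h), which allows the libraries to be compared directly, without a test. All 13 mitochondrial mRNAs were lower with BDS4 than with RVX-208, with a median log2 ratio of -0.72 and a range of -0.92 to -0.32, and 8 of 13 were lower past 1.5-fold. Of the 31 nuclear genes, NDUFA9 fell by the 2-fold rule and none rose, 4 were lower past 1.5-fold, and the median was -0.27. Under total-count scaling 7 nuclear genes and 10 mitochondrial mRNAs were lower past 1.5-fold. In this comparison 24.8% of all genes passed 2-fold (11.7% higher, 13.1% lower) and 42.9% passed 1.5-fold (21.8% lower). ATP5PO (-0.79 [-0.90 to -0.67]), CYC1 (-0.79) and NDUFA10 (-0.69) were the other 3 past 1.5-fold. SDHB (0.01 [-0.20 to 0.23]), UQCRQ (0.03) and COX6C (0.03) were close between the compounds, though counting intervals alone do not show that the compounds act alike on them. With 1 library each, differences between cultures and between compounds cannot be told apart.

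For TGF-β relative to control the mitochondrial mRNAs were near level. Their median was 0.06, which became -0.01 under total-count scaling, and their range ran from -0.35 for MT-ND5 to 0.32 for MT-ND1 and MT-CO3. No gene of the 46 passed 2-fold, beside 9.68% of all genes (5.32% higher, 4.37% lower), and 1 passed 1.5-fold, beside 19.1% (10.1% higher, 8.99% lower). That gene was SDHB, 1.51-fold lower (-0.59 [-0.81 to -0.38]), and under total-count scaling COX7C (-0.65) passed as well. Of the 31 nuclear genes 25 were below 0, with a median of -0.17. Signs over all genes were not counted in this comparison, so those given here are not read as particular to these genes. All 6 ATP synthase genes were below 0 with a median of -0.31, among them ATP5F1B at -0.45 and ATP5F1A at -0.39, and the 4 genes listed under complex IV were below 0 with a median of -0.20, while NDUFA4, counted with complex I, stood at 0.27.

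With RVX-208 relative to TGF-β, 19 of the 31 nuclear genes were above 0, with a median of 0.12, while signs over all genes were not counted. The 6 ATP synthase genes were all above 0 (median 0.16), except that under total-count scaling ATP5PB was below it. This comparison and TGF-β relative to control both use the TGF-β library, so opposite signs in them are not independent of each other.

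The promoters of NDUFA9 and NDUFB8, the nuclear genes that fell, both hold AAGATGGCG, the core of a motif bound by the factor YY1, just inside the transcript. They are shown from 120 bases before to 30 bases from the annotated start with this motif in capitals (RefSeq, GRCh38.p14, chr12:4648994-4649143 on the plus strand for NDUFA9 and chr10:100529842-100529991 on the minus strand for NDUFB8).
NDUFA9: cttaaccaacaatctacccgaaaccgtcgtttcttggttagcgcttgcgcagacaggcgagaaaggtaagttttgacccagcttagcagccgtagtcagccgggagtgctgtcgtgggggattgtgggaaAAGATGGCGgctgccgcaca
NDUFB8: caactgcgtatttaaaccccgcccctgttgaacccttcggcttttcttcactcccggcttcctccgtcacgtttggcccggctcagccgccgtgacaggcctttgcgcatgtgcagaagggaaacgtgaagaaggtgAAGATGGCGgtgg
The first base of the motif is base 11 of the NDUFA9 transcript and base 18 of the NDUFB8 transcript. On both strands of the RefSeq windows (250 bases before to 50 from the start), AAGATGGCG occurred in 1.75% of 35116 promoters and in 4 of the 26 nuclear genes here that had a window, the other 2 being SDHB and UQCRC1. With BDS4 relative to TGF-β these 4 stood at -1.49, -1.02, 0.53 and -0.55, so genes with the motif went both ways. CCGGAAG, a core bound by ETS factors such as GABPA, occurred in 9 of 26 genes and in 10.3% of all windows. A 10-base motif bound by NRF1 occurred in 2 of 26 (ATP5F1C and SDHD) and in 1.24% of windows. TCAAGGTCA, bound by oestrogen-related receptors, occurred in 1 of 26 (SDHD) and in 0.353% of windows. The shares over all windows count each window, while a gene here counts once if any of its windows holds the motif, so the units differ. These letter matches are descriptions and not binding sites.

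The remaining nuclear subunits of the same complexes were then counted. Of 51 such genes 44 were past 1 CPM, and with BDS4 relative to TGF-β 7 fell and 2 rose by the 2-fold rule, beside 17.7% and 14.5% of all genes, with a median of -0.36. Of these 7 falls 5 were in complex I: with the genes above, 33 nuclear subunits were past 1 CPM, 7 fell, none rose, 27 were below 0 and the median was -0.47. These shares of falls lie near that of all genes. They included the iron-sulphur subunits NDUFS7 (14.0 CPM with BDS4, 36.5 with TGF-β, -1.38) and NDUFS8 (33.3 and 74.4 CPM, -1.16), and NDUFB7 of the membrane arm (14.3 and 47.0 CPM, -1.72 [-1.91 to -1.53]). With RVX-208 relative to TGF-β none of the 33 passed 1.5-fold, beside 17.1% of all genes, and their median was 0.01.

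In complex III, UQCR10 fell with BDS4 (24.8 CPM, against 59.4 with TGF-β, -1.26). CYCS, which encodes the mobile carrier cytochrome c, went the other way: it had 258 CPM with BDS4, 169 with RVX-208, 110 with TGF-β and 144 in the control, and rose with BDS4 relative to TGF-β (1.23 [1.16 to 1.30]). Cytochrome c1 and cytochrome c thus had opposite signs with BDS4. The 11 nuclear genes of complex IV had a median of 0.17 with BDS4. The only gene past 2-fold was the testis-type isoform COX6B2, at 2.80 against 0.951 CPM, beside 32.2% of all genes. These 11, which leave out NDUFA4 (0.27), were below 0 for TGF-β relative to control (median -0.21), under total-count scaling too. Among them the intervals of COX6B1 (-0.03 [-0.12 to 0.06]) and COX6A1 (-0.05 [-0.11 to 0.002]) included 0. In ATP synthase, ATP5MC2, a second gene for the membrane ring, fell with BDS4 (31.5 CPM with BDS4, 97.4 with RVX-208, 78.9 with TGF-β, -1.33 relative to TGF-β), while ATP5MC3 above did not.

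**Figure D5:**
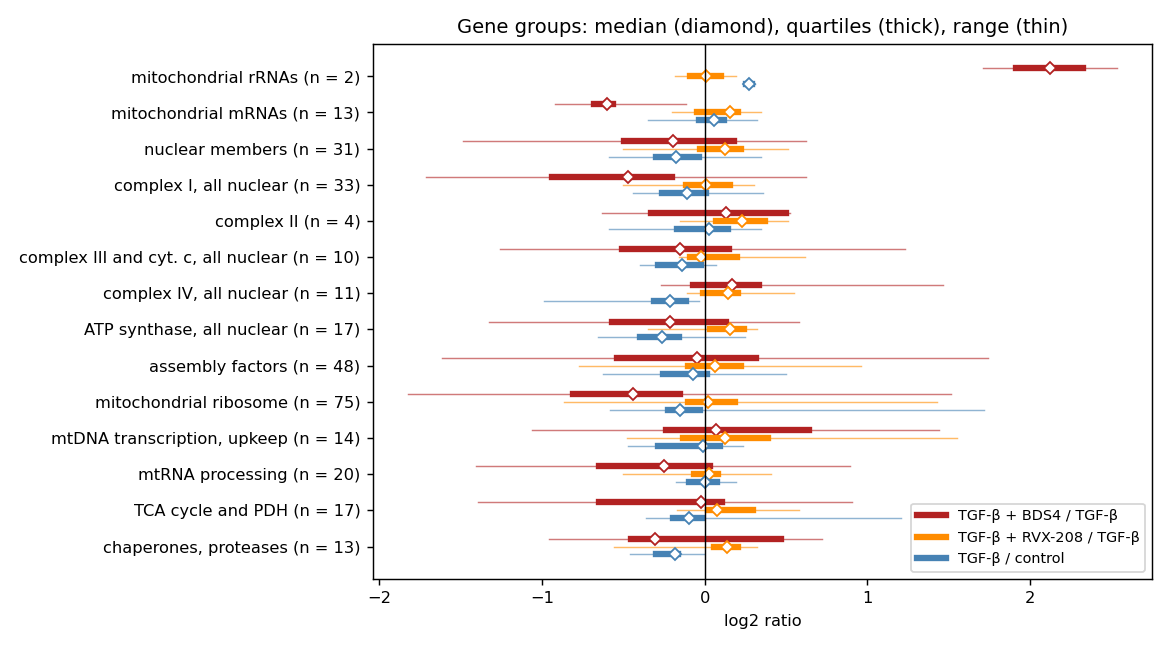
Median (diamond), quartiles (thick bar) and range (thin line) of log2 ratios (horizontal axis) by gene group, for BDS4 with TGF-β over TGF-β, RVX-208 with TGF-β over TGF-β, and TGF-β over control. With BDS4 the mitochondrial rRNAs lie at 2.12, the mitochondrial mRNAs at -0.60, all nuclear complex I genes at -0.47 and the mitochondrial ribosome at -0.44.

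The proteins that join the mitochondrial rRNAs in the ribosome were counted next. Of 75 mitochondrial ribosomal protein genes past 1 CPM, 14 fell and 3 rose with BDS4 relative to TGF-β, and the median was -0.44. The share that fell lies near the 17.7% of all genes, and 14.5% of all genes rose. MRPS15 (14.4 CPM with BDS4, 51.0 with TGF-β, -1.83), MRPL11 (23.6 and 71.4, -1.60), MRPL15 (11.8 and 34.8, -1.57) and MRPL24 (10.8 and 31.6, -1.54) had the lowest ratios. MRPL49 rose with both compounds, at 139 CPM with BDS4, 136 with RVX-208, 50.5 with TGF-β and 46.4 in the control. MRPS6, at 1.51 with BDS4, shares exons with SLC5A3, and MRPL30, at 1.30, fell under 2-fold when a gene it overlaps was added. MRPL34 was higher with TGF-β than in the control (25.5 against 7.70 CPM, 1.73), and no other gene of the list passed 2-fold, beside 9.68% of all genes.

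Genes that copy and transcribe mitochondrial DNA went both ways. POLG, the replicative DNA polymerase, rose with BDS4 (206 CPM with BDS4, 82.0 with RVX-208, 76.0 with TGF-β and 67.0 in the control, 1.44 relative to TGF-β), and POLRMT, the mitochondrial RNA polymerase, fell (21.4 CPM with BDS4, against 44.7 with TGF-β, -1.07). TWNK, the replicative helicase, rose with RVX-208 (31.7 CPM, against 10.7 with TGF-β, 1.56) and had 9.12 CPM with BDS4. TFAM, which packages mitochondrial DNA and starts its transcription, had 131 CPM with BDS4, 107 with RVX-208, 85.1 with TGF-β and 92.5 in the control (0.62 and 0.33 for the compounds). Over the 14 genes of this list the median with BDS4 was 0.07, and -0.03 under total-count scaling. Among 20 genes of mitochondrial RNA processing, LRPPRC, which stabilises mitochondrial mRNAs, had 274 CPM with BDS4, 165 with RVX-208 and 147 with TGF-β (0.89), and PRORP, the nuclease that cuts the 5′ ends of the tRNAs, was the only gene past 2-fold (-1.41, with exons that overlap an unnamed gene). The list's median was -0.25, and 32.2% of all genes passed 2-fold with BDS4 relative to TGF-β.

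Of 9 regulators of mitochondrial biogenesis past 1 CPM, the coactivator PPARGC1A rose with BDS4 from low counts (55 counts with BDS4, 14 with TGF-β, 2.09 [1.22 to 3.05]) and its relative PPRC1 fell (27.9 CPM with BDS4, against 100.0 with TGF-β, -1.84). NRF1, a transcription factor of respiratory genes, had 20.9 CPM with BDS4, 21.9 with RVX-208, 27.5 with TGF-β and 20.3 in the control. Among 48 assembly factors 3 rose and 7 fell with BDS4, beside 14.5% and 17.7% of all genes, with a median of -0.04. LYRM7, which serves the assembly of complex III, rose (78.8 CPM with BDS4, 23.5 with TGF-β, 1.75). COA7 (20.0 and 61.3 CPM, -1.62), TACO1 (20.5 and 59.8 CPM, -1.54) and COA3 (17.4 and 49.6 CPM, -1.51), which serve complex IV, fell. TACO1 is known to promote translation of MT-CO1.

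The citric acid cycle, which feeds electrons to the chain, had 17 genes past 1 CPM with a median of -0.02 with BDS4, and 4 fell, beside 17.7% of all genes. CS, the citrate synthase that opens the cycle, had 82.0 CPM with BDS4, 297 with RVX-208, 199 with TGF-β and 86.3 in the control. It rose with TGF-β relative to control (1.21 [1.13 to 1.28]) and fell with BDS4 relative to TGF-β (-1.28 [-1.36 to -1.20]). IDH3B (28.2 CPM with BDS4, 74.2 with TGF-β, -1.40), SUCLG2 (23.5 and 56.1 CPM, -1.26) and IDH3G (16.1 and 35.3 CPM, -1.14) were the other 3. Of 13 mitochondrial chaperones and proteases none passed 2-fold in the comparison of BDS4 with TGF-β (median -0.31), beside 32.2% of all genes. All 13 were below 0 for TGF-β relative to control (median -0.18), but some intervals included 0. These were those of SPG7 (-0.005 [-0.11 to 0.10]), AFG3L2 (-0.07 [-0.14 to 0.01]) and OMA1 (-0.47 [-0.96 to 0.007]). Signs over all genes were not counted, so this is not read as particular to the list. These wider lists hold genes chosen for their role, and each median stands beside -0.01 over all genes for BDS4 relative to TGF-β.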

How the data were processed

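RNA was sequenced from 4 libraries of LX-2 cells, 1 per group. The deposited table holds raw counts of fragments per gene and FPKM values. Per the series' design text, the FPKM values were made by the authors with StringTie 1.3.0 from stranded, paired-end mRNA libraries. Reads were aligned to GRCh38 with TopHat2 2.0.6 after base calling with CASAVA 1.8, per the submitters' processing notes. No source used here gives the counting program, its annotation or its strand setting, so overlapping and antisense genes may share reads. Libraries were scaled with TMM (edgeR 4.0.16, R 4.3.3), and a gene was kept where any library reached 1 CPM (16099 genes). Ratios carry 95% conditional exact (Clopper-Pearson) intervals. These intervals and those of the shares cover counting error only. Medians are of log2 ratios with a prior count of 2. A floor of 3 counts was 0.147, 0.178, 0.136 and 0.126 CPM in the BDS4, RVX-208, TGF-β and control libraries. Alternatives were other scalings (DESeq2 1.42.0 among them), filters, prior counts, sums over overlapping genes or copies, and the deposited FPKM with a pseudocount of 0.1. The ratio rule was run on simulated counts that held counting error only, so that check says nothing about variation between cultures. Software was pandas 2.3.3, scipy 1.17.1, numpy 2.4.6 and matplotlib 3.10.9 under Python 3.11.15. Gene positions and overlaps came from GENCODE release 29 and promoters from RefSeq, where 26 of 34 nuclear genes had a window. In the wider lists 4 older symbols were matched through RefSeq synonyms. The genes and lists were chosen with earlier results of these data known. Named were all mitochondrially encoded genes, every nuclear gene past 2-fold and up to 12 by size of ratio per comparison, up to 4 per wider list, and 7 by role (TFAM, POLRMT, LRPPRC, PPARGC1A, NRF1, CYCS, CS). Other genes named in the text were chosen after their values were seen. 1 gene of the wider lists is not reported here.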

Additional observations from a re-analysis of the deposited data

How the results depend on the processing

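No paired analysis was possible because each group has 1 library, and for the same reason no replicate could be left out. Total-count scaling moved all log2 ratios by -0.10 (BDS4 relative to TGF-β), -0.03 (RVX-208 relative to TGF-β), -0.07 (BDS4 relative to RVX-208) and -0.07 (TGF-β relative to control). Under it, and equally with the deposited FPKM, the median of the mitochondrial mRNAs was -0.70 with BDS4 relative to TGF-β, -0.79 relative to RVX-208 and -0.012 for TGF-β relative to control. That of the rRNAs was 2.02, 2.05 and 0.20 in these comparisons and -0.024 for RVX-208 relative to TGF-β. That of the nuclear genes with BDS4 relative to TGF-β was -0.29 with total counts and -0.28 with FPKM, and 2 genes passed 1.5-fold for TGF-β relative to control, against 1. DESeq2 size factors gave 2.14 for the rRNAs with BDS4 relative to TGF-β. With means in place of medians the mitochondrial mRNAs stood at 0.10 for RVX-208 relative to TGF-β and -0.68 for BDS4 relative to RVX-208, and with overlapping genes summed at 0.0095 for TGF-β relative to control. As shares of all FPKM, in the order BDS4, RVX-208, TGF-β and control, the mitochondrial mRNAs held 4.92%, 8.91%, 8.84% and 8.48%, the rRNAs 3.59%, 0.939%, 0.992% and 0.830%, and the nuclear genes 0.298%, 0.363%, 0.356% and 0.413%. Of 184 ratios of single genes 13 changed sign with total counts or FPKM, 3 with overlapping genes summed, 1 with DESeq2 size factors and 0 under the other settings, and none of those past 2-fold did. The number of genes past 2-fold with BDS4 relative to TGF-β was 4, 6 with total counts or FPKM (MT-CO3 and CYC1 added) and 3 with overlapping genes summed. The cause was not tested. NDUFB10, NDUFS3 and COX5B have too few counts for a ratio, and 1 library per group limits every comparison.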

Other observations

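Of the 22 mitochondrial tRNA genes 12 reached 1 CPM. MT-TF, which lies directly upstream of MT-RNR1, had 592 counts with BDS4, 84 with RVX-208, 98 with TGF-β and 90 in the control, a log2 ratio of BDS4 to TGF-β of 2.71 [2.40 to 3.03]. MT-TV, between the rRNAs, had 114, 72, 86 and 77 counts, and MT-TL1, directly downstream of MT-RNR2, had 625, 451, 636 and 481. MT-TS1 had 123, 51, 40 and 63 counts (1.74 for BDS4 relative to TGF-β). MT-TC, which is encoded on the minus strand at chrM:5761-5826, had 1 count with BDS4, 61 with RVX-208, 61 with TGF-β and 83 in the control. It overlaps MT-TY, which had 61, 58, 54 and 79 counts, and with both summed the log2 ratio of BDS4 to TGF-β was -0.78. Other small RNA genes, such as MIR612 and SNORD63, read 1 count in every library. No fold is therefore given for MT-TC alone, and a loss of this tRNA is not read from it.

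Nuclear copies of mitochondrial genes number 404 in the table, of which 33 had any count and 5 reached 1 CPM. MTND2P28, a copy of MT-ND2, had 2763 counts with BDS4, 4778 with RVX-208, 6519 with TGF-β and 6347 in the control (-1.12 [-1.19 to -1.06] for BDS4 relative to TGF-β, a larger difference than the -0.68 of MT-ND2 itself). MTATP6P1 had 1631, 2394, 3068 and 3023 counts, and MTCO1P12 had 378, 426, 722 and 635. MTND4P12 had 0, 0, 0 and 62 counts. Whether their reads arose from the nuclear copies or from mitochondrial RNA was not tested.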
